A study of Rattus norvegicus with 8 samples.

Results

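Cytokines are secreted or membrane-bound proteins through which cells signal to each other, and their levels are described here together with those of their receptors. The members were the genes that the authors' annotation of the deposited values places in the KEGG pathway rno04060, cytokine-cytokine receptor interaction. Of 240 such genes, 12 (Ccl2, Ccl7, Il1b, Tgfb1, Inhba, Flt1, Flt4, Kdr, Csf1r, Cx3cr1, Prlr and Osmr) were left out by GeneID, which left 228 of the 22601 genes, 123 ligands and 105 receptors. No gene was chosen by its own level, but the pathway itself was selected on earlier comparisons of these FPKM values between the 3 groups, so the counts below describe it and are no independent support for it.

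RNA from the hippocampus of 8 wild type Wistar rats, bought at 180 to 220 g and of an age not given in the sources used here, was sequenced with 1 library per rat. The 3 PTZ rats and the 2 Q808 rats had been kindled with pentylenetetrazole (PTZ), a convulsant that blocks GABA-A receptors, in 14 i.p. injections of 35 mg/kg, every 48 h over 28 days, and a last dose of 60 mg/kg. Q808, an anticonvulsant compound, was then given to the Q808 rats by gavage at 30 mg/kg daily for 28 days, while the PTZ rats and the 3 saline-injected Con. rats received its solvent. The PTZ and Q808 rats were given another sub-convulsive dose of PTZ before the tissue was taken, so both carry a recent injection as well as the kindling, and no rat received Q808 without PTZ.

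Ligands of this pathway bind receptors of a few structural classes. Chemokines act on receptors coupled to G proteins and guide the movement of cells, type I and II cytokines act on receptors that signal through JAK kinases and STAT factors, tumour necrosis factor (TNF) ligands gather trimeric receptors, and ligands of the TGF-beta class act on receptor serine kinases. In the brain most of these receptors are carried by glia, vessel cells and resident macrophages as well as by neurons, and interleukin 1 and TNF are known for their rise after seizures.

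The values are FPKM, fragment numbers divided by transcript length and by the mapped fragments of the library, so that levels can be compared between genes. A gene was tested where its mean over the 8 libraries was at least 0.1 FPKM, and it was called where the unadjusted limma p-value was below 0.05 and the change exceeded 1.5-fold. All log2 changes below are differences of mean log2(FPKM + 0.1) between groups, a scale that understates the change of low genes. For all 196 members with a value above 0, the 8 values were whole multiples of a step, to within 0.01 fragments, which gave the fragment numbers printed beside low values. They are the smallest whole numbers that fit, and over all genes they summed to between 11525951 and 16481780 per library.

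Con.-3, PTZ-3 and Q808-1 stood apart from the other 5 libraries. Their mean log2 level over 8 striatum markers (such as Drd1 and Drd2) was 7.63, 6.31 and 6.35, against 2.01 to 2.95 in the others. The mean log2 level over 6 dentate granule cell markers was lowest in the same libraries (0.90 to 1.44, against 2.45 to 2.79). Among the 6, Calb1 was instead highest in PTZ-3 (111.9 FPKM) and Con.-3 (87.7 FPKM). Only Prox1 and C1ql2 were lower in each of the 3 libraries than in every other library. These 3 libraries cross the groups, 1 in each, and changes are therefore also given within the other 5 libraries and, for named genes, between the single libraries of the set of 3, which has no replicates. In whole tissue, a lower level from fewer cells of a type cannot be told apart from less RNA per cell. After Benjamini-Hochberg adjustment over all genes no member reached 0.05 in the main limma fits, and every called member had an adjusted p of 0.999 for PTZ against Con., 0.952 for Q808 against PTZ or 0.901 for Q808 against Con. Before adjustment, 10, 6 and 17 members were below 0.05. Over the alternative settings the smallest adjusted limma p of a member was 0.0354, for PTZ against Con. without the 3 libraries with high striatum markers.

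Receptors were measured at higher levels than ligands. Of the 123 ligands, 69 passed the filter, 24 lay below it with at least 1 value above 0, and 30 were listed at 0 in all 8 libraries. Of the 105 receptors, 73 passed, 30 lay below the filter and 2, Ccr4 and Il22ra1, were listed at 0 throughout. The median of the mean levels was 0.162 FPKM for ligands and 0.755 FPKM for receptors, while a mean of at least 10 FPKM was reached by 10 ligands and 14 receptors. The filter separated Prl (0.105 FPKM) and Osm (0.102 FPKM) just above it from Gdf5 (0.0931 FPKM) below it.

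**Figure D1:**
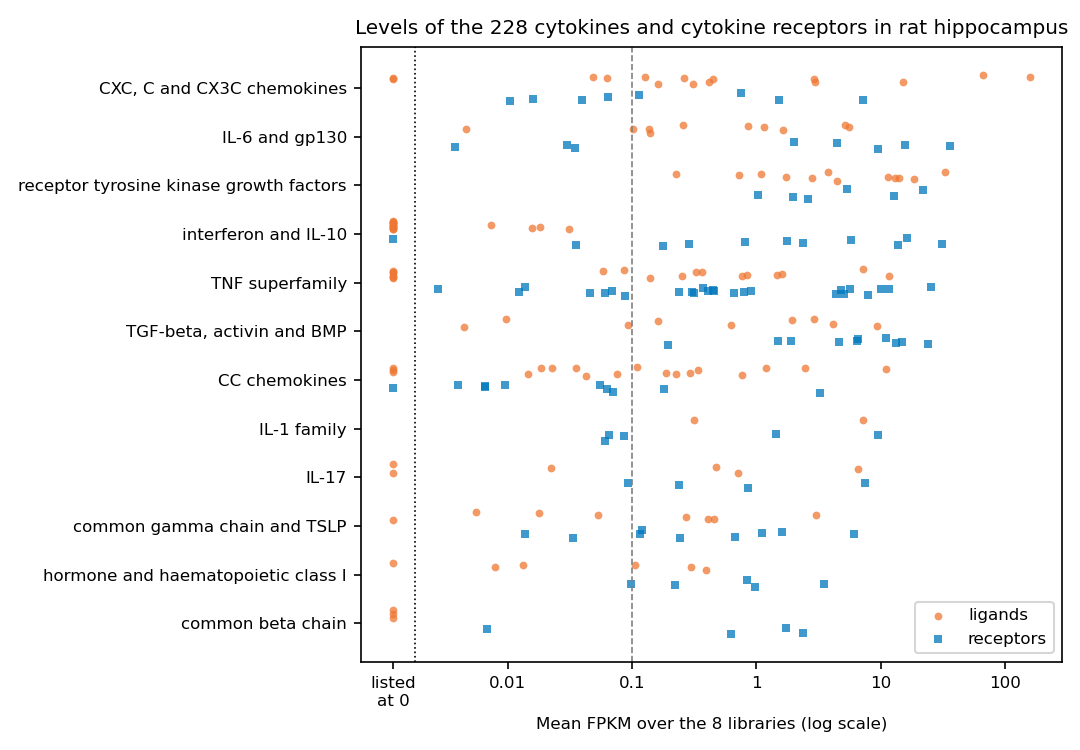
Mean FPKM over the 8 libraries (log axis) of each of the 228 members, by family, with ligands as orange circles and receptors as blue squares, and the filter at 0.1 FPKM as a dashed line. Members listed at 0 in all libraries stand left of the dotted line, 30 ligands and 2 receptors, and 12 of those ligands belong to the interferon and IL-10 family.

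The highest ligand was Cx3cl1 (fractalkine), a chemokine of neurons whose receptor is found on microglia, with a mean of 159.7 FPKM and a range of 102 to 277 FPKM. Cxcl14, a chemokine of some interneurons, followed with 66.3 FPKM, then the vessel growth factors Vegfa (33.2 FPKM) and Vegfb (18.7 FPKM), Cxcl12 (15.1 FPKM), Pdgfa (13.9 FPKM), Kitlg (13.1 FPKM) and Tnfsf13 (11.7 FPKM). None of these but Cxcl12 was called in a comparison.

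Among receptors the highest was Cntfr, the binding subunit for ciliary neurotrophic factor, with 35.9 FPKM (27.4 to 46.4). It was followed by the interferon gamma receptor chain Ifngr1 (31.1 FPKM), the TNF receptor Tnfrsf21 (25.5 FPKM), the BMP receptor Bmpr2 (23.9 FPKM), Kit (22 FPKM), the partner chain Ifngr2 (16.3 FPKM), the shared signalling chain Il6st or gp130 (15.6 FPKM) and Bmpr1a (14.8 FPKM). Kit, the receptor of stem cell factor, was 12.1 in Con.-3, 8.15 in PTZ-3 and 4.04 FPKM in Q808-1, and 25.3 to 36.7 FPKM in the other 5 libraries. Tnfrsf21 followed the same division, with 12.3 to 13.2 FPKM in the 3 libraries and 31.4 to 35.8 FPKM in the others. Both thus divided the libraries as the striatum markers did, and neither was called.

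Several ligands known from seizure models were close to the detection limit in this tissue. Tnf itself was listed at 0 in all 8 libraries, as were Lta, Ltb, Tnfsf11 and Tnfsf14, while the TNF receptor Tnfrsf1a was present at 4.16 to 7.61 FPKM. A listed 0 need not mean that the transcript is absent, since Rps6, a ribosomal protein gene that every cell uses, was listed at 0 to 0.438 FPKM in the same files. Ifng, Ifnb1, Il10, Csf2, Il3 and Il5 were also listed at 0 throughout, and their receptors Ifngr1, Ifnar1 (13.7 FPKM on average), Il10ra (1.77 FPKM) and Csf2ra (1.74 FPKM) were measured in every library.

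The comparison of PTZ with Con. rats asks which members differ after kindling. Of the 142 members tested, 8 were called (5.63%), 7 higher and 1 lower in PTZ, against 2.53% of all 15593 genes tested (1.69% higher and 0.84% lower). The libraries of PTZ and Con. were fully apart in 14 members, 9.86% of those tested, beside 9.15% of all genes. Higher were the ligands Tslp, Lif and Tnfsf9 and the receptors Il1r1, Csf2rb, Il15ra and Tnfrsf11a, and Acvr2a was lower. No member of the CC, CXC, IL-17, interferon or growth factor families was called in this comparison.

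Tslp (thymic stromal lymphopoietin), an alarmin of epithelial and stromal cells, measured 0.894, 1.1 and 2.52 FPKM in Con.-1 to Con.-3, 4.9, 7.83 and 2.58 FPKM in PTZ-1 to PTZ-3 and 3.37 and 1.03 FPKM in Q808-1 and Q808-2, from 15, 22 and 42, 89, 146 and 37, and 49 and 18 fragments. PTZ-1 and PTZ-2 were far above every Con. library, while PTZ-3 lay only just above Con.-3, so that the groups did not overlap but nearly met. The log2 change was 1.69 (SE 0.51), and it was 2.53 within the other 5 libraries and 0.03 between PTZ-3 and Con.-3. Its adjusted limma p ranged from 0.0354, without the 3 libraries with high striatum markers, to 1 over the alternatives. Crlf2, its receptor chain, was measured at 4.41, 4.61 and 8.15 FPKM in Con. and 6.88, 4.45 and 6.91 FPKM in PTZ libraries and was not called (log2 change 0.11).

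Lif (leukemia inhibitory factor), a ligand of the gp130 class that acts on astrocytes, measured 0.0499, 0.105 and 0.0252 FPKM in Con., 0.254, 0.382 and 0.117 FPKM in PTZ and 0.115 and 0.0481 FPKM in Q808 libraries, from 2, 5 and 1, 11, 17 and 4, and 4 and 2 fragments. Lif passed the filter only through the PTZ libraries, with group means of 0.06 FPKM in Con., 0.251 FPKM in PTZ and 0.0816 FPKM in Q808. Its call is therefore no support for a change. In FPKM all PTZ libraries were above all Con. libraries, with a log2 change of 1.09 (SE 0.44). At these small numbers PTZ-3 held 4 fragments and Con.-2 held 5. Lif was not called without Con.-1, Con.-3, PTZ-1 or PTZ-2, where the log2 change was 0.82 to 1.06. It was also not called after quantile normalization (log2 change 1.04). Its receptor chains Lifr and Il6st were measured in every library and not called, with log2 changes of 0.08 and -0.17.

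Tnfsf9 (4-1BB ligand), a membrane ligand that costimulates T cells, measured 0.804, 0.452 and 0.541 FPKM in Con. and 1.93, 1.26 and 0.879 FPKM in PTZ libraries, a log2 change of 1.03 (SE 0.38). The groups did not overlap in FPKM, although PTZ-3 (14 fragments) and Con.-1 (15 fragments) were close. The call was lost without Con.-2, Con.-3, PTZ-1 or PTZ-2, where the log2 change was 0.75 to 1.05. Its receptor Tnfrsf9 stayed between 0.102 and 0.509 FPKM over all libraries and was not called.

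Il1r1, the signalling receptor of interleukin 1, measured 0.704, 1.14 and 0.636 FPKM in Con., 1.86, 1.27 and 1.43 FPKM in PTZ and 2.22 and 2.29 FPKM in Q808 libraries. Every PTZ library was above every Con. library, and both Q808 libraries were above every PTZ library. The log2 change for PTZ against Con. was 0.83 (SE 0.32), with 0.71 within the 5 libraries and 1.05 between PTZ-3 and Con.-3. It was not called without Con.-1, Con.-3, PTZ-1 or PTZ-3, where the log2 change was 0.68 to 0.86. Its ligand Il1a measured 0.143 to 0.496 FPKM with overlapping groups, the accessory chain Il1rap 6.09 to 12 FPKM, and neither was called, while the decoy receptor Il1r2 had a mean of 0.0868 FPKM and was not tested.

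Csf2rb, the shared beta chain of the receptors for GM-CSF, IL-3 and IL-5, measured 0.364, 0.245 and 0.196 FPKM in Con., 0.628, 1.03 and 0.568 FPKM in PTZ and 1.26 and 0.725 FPKM in Q808 libraries. All 5 libraries of PTZ-injected rats lay above the 3 Con. libraries. The log2 change was 1.18 (SE 0.37) for PTZ against Con., nearly equal in the 5 libraries (1.18) and between the libraries of the set of 3 (1.18). The call was lost without PTZ-2, where the log2 change was 0.95. Its ligands Csf2, Il3 and Il5 were listed at 0.

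Il15ra, which presents IL-15 to neighbouring cells, measured 0.166, 0.112 and 0.0669 FPKM in Con. and 0.245, 0.388 and 0.427 FPKM in PTZ libraries, from 5, 4 and 2 and 8, 13 and 11 fragments. The groups did not overlap, with a log2 change of 1.08 (SE 0.37), and the call was lost without Con.-2, Con.-3, PTZ-2 or PTZ-3, where the log2 change was 0.91 to 1.08. Its ligand Il15 was not called in this comparison (log2 change 0.11).

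Tnfrsf11a, the receptor RANK, measured 5.66, 5.57 and 6.39 FPKM in Con. and 10.3, 9.94 and 8.2 FPKM in PTZ libraries, and split in the Q808 group at 12 and 4.76 FPKM. The PTZ libraries were all above the Con. libraries, with a log2 change of 0.68 (SE 0.17). Along with Tslp it was called with each of the 6 libraries left out in turn. It was not called with all 3 groups in a single fit. The soluble decoy Tnfrsf11b was not called (log2 change 0.04).

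Acvr2a, a type II receptor for activins, was the only member called lower, with 18, 19.9 and 11.8 FPKM in Con. and 9.69, 9.08 and 13.2 FPKM in PTZ libraries. The groups overlapped, since PTZ-3 was above Con.-3, and the change was -1.01 within the 5 libraries and 0.16 in the other direction between PTZ-3 and Con.-3. The pooled log2 change was -0.62 (SE 0.24). The mean log2 level over 6 choroid plexus markers was 4.56, 4.67 and 0.98 in Con. and 2.17, 1.65 and 2.73 in PTZ libraries, and 1.5 and 6.21 in Q808 libraries, where Acvr2a measured 6.6 and 18.7 FPKM. Acvr2a was thus highest in Con.-1, Con.-2 and Q808-2, the libraries with the most choroid plexus signal, and the part of these cells in its change was not tested. Acvr2a missed the p threshold once replicate numbers were entered as blocks (log2 change -0.62), and it was not called under 8 other alternatives or without Con.-1, Con.-2, PTZ-1 or PTZ-2, where the log2 change was -0.56 to -0.47.

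**Figure D2:**
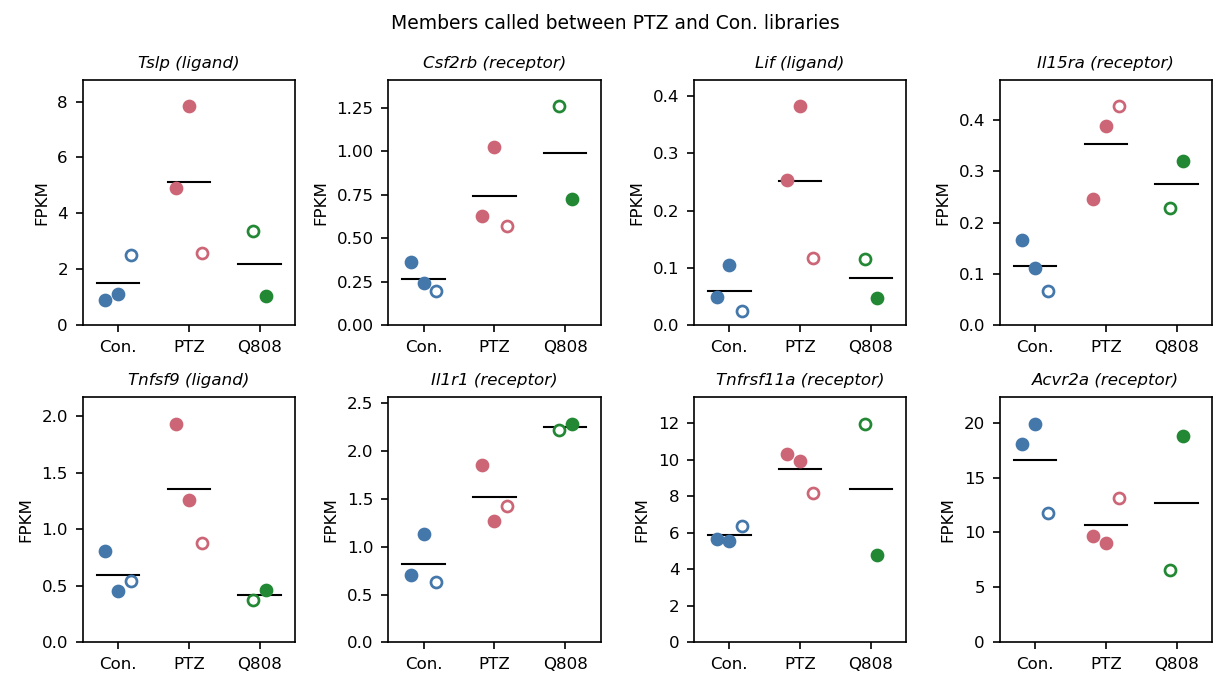
FPKM of the 8 members called between PTZ and Con., 1 point per library and a line at the group mean, with open circles for Con.-3, PTZ-3 and Q808-1, the libraries with high striatum markers. Each axis starts at 0, and in 7 of the 8 panels the PTZ libraries do not overlap the Con. libraries, with Acvr2a as the exception.

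With a pseudocount of 1 in place of 0.1, only 2 of the 8 were still called, Tslp and Tnfrsf11a. Leaving out the 3 libraries with high striatum markers gave 17 called members, 8 higher and 9 lower, beside 9.81% of all genes called, and 6 of the 8 were among them. Il1r1 and Il15ra were not, with log2 changes of 0.71 and 0.79. Leaving out PTZ-1 or PTZ-2 gave 5 called members each, beside 1.89% and 1.6% of all genes, and leaving out PTZ-3 gave 12, beside 7.28%, so the share over all genes moved with the members.

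Genes downstream of these receptors were counted from 3 lists. Of 18 tested genes for JAK kinases, STAT factors and SOCS inhibitors, 3 were called higher in PTZ, Socs3, Socs2 and Stat3, and none lower. Over all genes 1.69% were called higher and 0.84% lower. Socs3, an inhibitor that gp130 ligands induce, measured 0.359, 0.534 and 0.390 FPKM in Con. and 4.69, 6.46 and 1.03 FPKM in PTZ libraries, a log2 change of 2.66 (SE 0.64). Stat3 had a log2 change of 0.79 and Socs2 of 0.74. Of 16 adaptors of the IL-1 and TNF receptors and of 11 tested SMAD and ID genes, none was called in either direction.

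The comparison of Q808 with PTZ rats asks which members differ after treatment of kindled rats. Of the 142 members, 6 were called (4.23%), 5 higher and 1 lower in Q808, against 1.92% of all genes (1.36% higher and 0.564% lower). Higher were the chemokines Ccl24, Cxcl12 and Pf4 and the receptors Il2ra and Eda2r, and Tnfsf9 was lower. Ccl24 and Il2ra passed the filter of 0.1 FPKM only through the Q808 libraries. Their group means were 0.0616 and 0.0296 FPKM in Con. and 0.0974 and 0.0621 FPKM in PTZ. Their calls are therefore no support for a change. In each of the 6 the Q808 and PTZ libraries did not overlap, which held for 32 of the 142 members and for 15.6% of all genes. Both comparisons use the PTZ libraries, and Tnfsf9 was the only member called in both.

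Ccl24 (eotaxin-2), a chemokine for eosinophils that macrophages can secrete, measured 0, 0.103 and 0.082 FPKM in Con., 0.113, 0.0366 and 0.143 FPKM in PTZ and 0.563 and 0.471 FPKM in Q808 libraries, from 0, 3 and 2, 3, 1 and 3, and 12 and 12 fragments. Both Q808 libraries were above all 6 others. The log2 change for Q808 against PTZ was 1.68 (SE 0.47), and it was not called without Q808-1, where the log2 change was 1.57, nor with a pseudocount of 1. Its receptor Ccr3 had a mean of 0.0629 FPKM and was not tested.

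Pf4 (platelet factor 4), a chemokine of platelets and of macrophages at brain borders, measured 1.77, 1.86 and 2.01 FPKM in Con., 3.27, 1.39 and 1.81 FPKM in PTZ and 7.13 and 4.47 FPKM in Q808 libraries, from 8, 10 and 9, 16, 7 and 7, and 28 and 21 fragments. The Q808 libraries were above all others, with a log2 change of 1.44 (SE 0.44) against PTZ. The call was lost without Q808-1, where the log2 change was 1.11, without the 3 libraries with high striatum markers, and in limma-voom on the fragment numbers.

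Cxcl12, a chemokine of vessels, meninges and some neurons, was the only one of the highest members to be called, at 14.4, 15.7 and 11.1 FPKM in Con., 12.8, 8.13 and 14.5 FPKM in PTZ and 24.1 and 20.5 FPKM in Q808 libraries. Both Q808 libraries were again the highest of the 8. The log2 change against PTZ was 0.95 (SE 0.28), and the call was lost without Q808-1, where the log2 change was 0.83. Neither of its receptors was called, and Cxcr4 measured 0.798, 0.9998 and 2.12 FPKM in PTZ and 0.996 and 1.55 FPKM in Q808 libraries and the scavenging receptor Ackr3 9.9, 7.25 and 5.23 FPKM in PTZ and 6.78 and 9.57 FPKM in Q808 libraries.

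Il2ra, the alpha chain of the IL-2 receptor, was near the detection limit at 0.0889, 0 and 0 FPKM in Con., 0.0822, 0 and 0.104 FPKM in PTZ and 0.359 and 0.3 FPKM in Q808 libraries, from 2, 0 and 0, 2, 0 and 2, and 7 and 7 fragments. The Q808 libraries were the highest, with a log2 change of 1.47 (SE 0.52) against PTZ that was not called without PTZ-1, PTZ-2, Q808-1 or Q808-2, where the log2 change was 1.15 to 1.58. Eda2r, a TNF receptor that binds ectodysplasin, measured 0.288, 0.112 and 0.195 FPKM in PTZ and 0.503 and 0.621 FPKM in Q808 libraries, but also 0.145, 0.105 and 0.482 FPKM in Con. libraries. Its log2 change of 1.19 (SE 0.46) lost its call with any of the 5 libraries left out, with log2 changes of 0.96 to 1.40 in those fits.

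Tnfsf9 was lower in Q808, at 0.371 and 0.465 FPKM against 1.93, 1.26 and 0.879 FPKM in PTZ libraries, from 6 and 9 against 39, 26 and 14 fragments. Q808-1 was also below all Con. libraries, and Q808-2 lay between Con.-2 and Con.-3. The log2 change was -1.43 (SE 0.44), and the call was lost without PTZ-1 or Q808-1, where the log2 change was -1.30 to -1.16. The other ligands that were higher in PTZ, Tslp and Lif, had log2 changes of -1.26 and -0.90 for Q808 against PTZ and were not called, and Q808-1 lay within the PTZ range of Tslp.

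Some markers of blood, vessel and border cells were also higher in Q808, and others were not. The mean log2 level over 4 markers of perivascular macrophages (Mrc1, Cd163, Lyve1 and Cd36, without the member Pf4) was -0.41 and -0.65 in the Q808 libraries, -1.87 to -1.02 in PTZ and -2.67 to -1.38 in Con. libraries, and Cd36 was listed at 0 in the 3 Con. libraries and PTZ-1. Their summed level was 3.18 to 3.51 FPKM in Q808, 1.39 to 2.17 FPKM in PTZ and 0.315 to 2.00 FPKM in Con. libraries, but Lyve1 was lower in Q808-2 (0.989 FPKM) than in any PTZ library (1.05 to 1.33 FPKM). The mean log2 level over 5 erythroid markers, Hbb among them, was 1.63 and 1.41 in Q808, 0.46 to 1.07 in PTZ and -0.18 to 0.34 in Con. libraries, so that the 3 groups were apart. Over 7 endothelial markers it was 3.96 and 3.09 in Q808, 2.45 to 3.62 in PTZ and 2.76 to 2.95 in Con. libraries, and over 7 markers of pericytes and smooth muscle 3.11 and 2.99, 1.94 to 3.34 and 1.76 to 2.16. In both lists the Q808 libraries were above all Con. libraries and overlapped the PTZ libraries. Over 8 microglial markers, of which Siglech was listed at 0 in all libraries, the level was 3.63 and 2.82 in Q808, 2.54 to 3.19 in PTZ and 2.59 to 2.81 in Con. libraries. The part of these cells in the changes of Ccl24, Pf4, Cxcl12 and the other members was not tested.

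With the 3 libraries left out, the Q808 group was a single library, Q808-2, assumed to vary like PTZ-1 and PTZ-2. That fit called 25 members, 18 higher and 7 lower, beside 9.26% of all genes, and 4 of the 6 were among them. Within the 5 libraries and within the set of 3, all 6 changed in the pooled direction. Leaving out PTZ-3 alone gave 23 called members beside 10.1% of all genes, leaving out PTZ-1 gave 3 beside 0.847%, and leaving out Q808-2 gave 16 beside 8.34%.

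The comparison of Q808 with Con. rats asks which members still differ from unkindled rats after treatment. Of the 142 members, 16 were called (11.3%), 15 higher and 1 lower in Q808, against 3.46% of all genes (3.07% higher and 0.391% lower). In each of the 16 the Q808 and Con. libraries were fully apart, which was so for 40 of the 142 members (28.2%) and for 20% of all genes. The 15 were 7 ligands, with Il12a, Il15, Tnfsf10 and Tnfsf12 besides Ccl24, Cxcl12 and Pf4, and 8 receptors. Ccl24 and, among the receptors, Il2ra were again tested only because of their Q808 values.

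**Figure D3:**
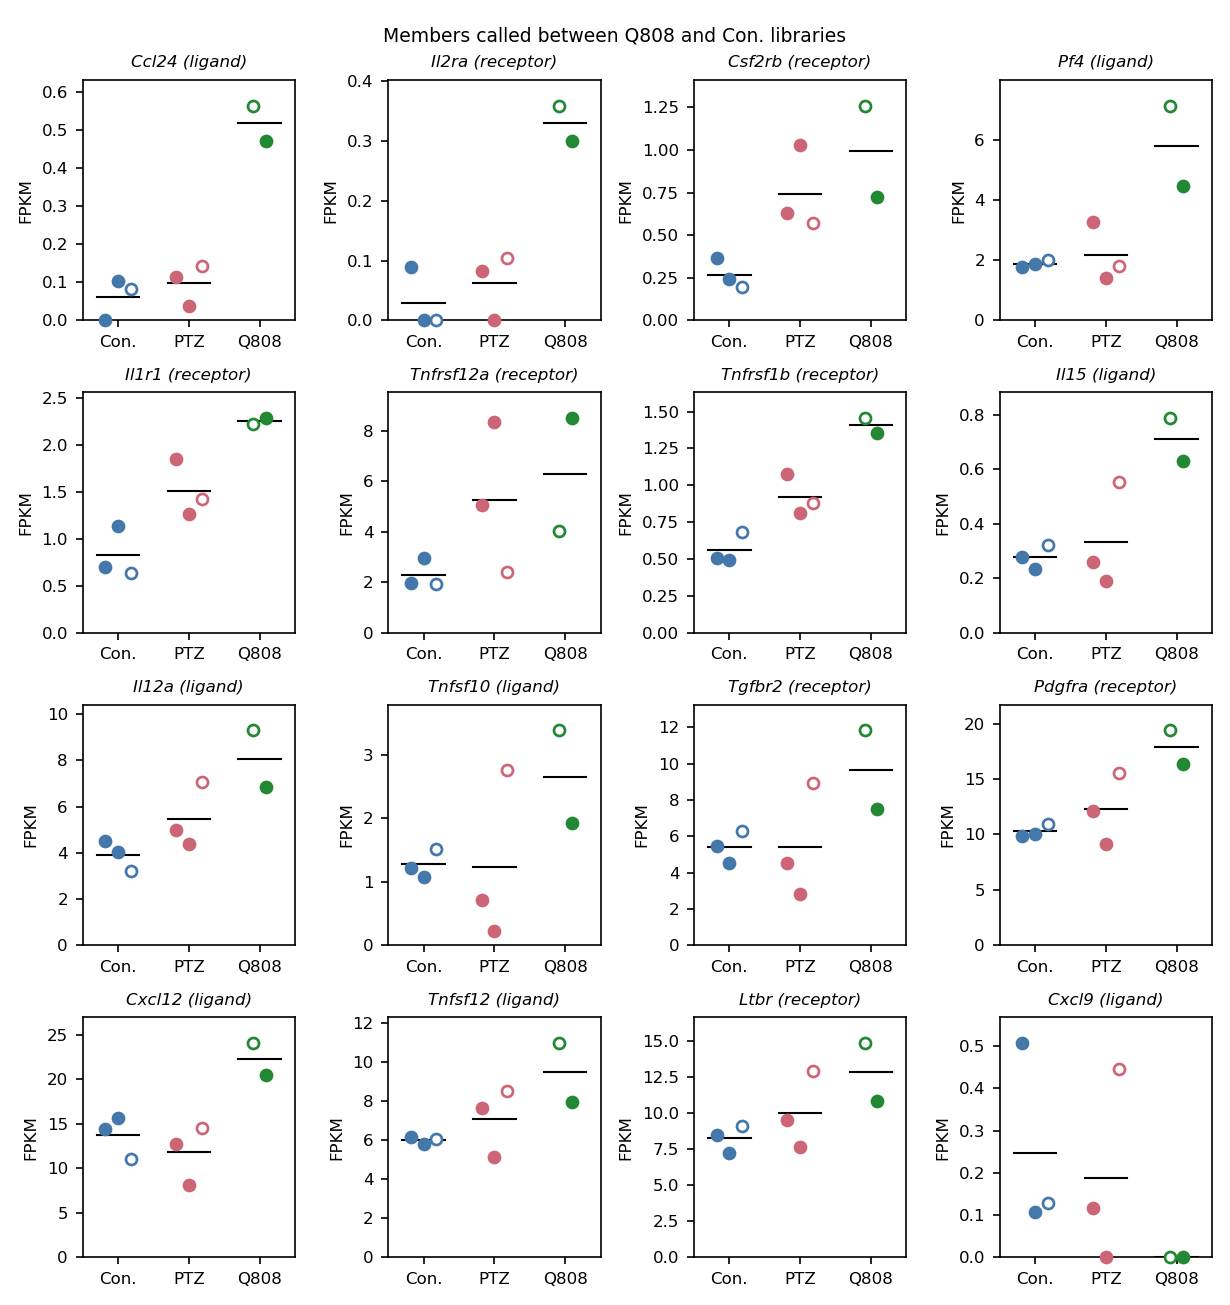
FPKM of the 16 members called between Q808 and Con., 1 point per library and a line at the group mean, with open circles for the libraries with high striatum markers. Each axis starts at 0, the Q808 libraries lie above all Con. libraries in 15 panels and at 0 for Cxcl9, and Q808-1 is above Q808-2 in 13 of the 15.

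The TNF superfamily, the family with the most genes tested, held 5 of the called members among its 28 tested genes. Tnfrsf1b, the second TNF receptor and the one of microglia and endothelium, measured 0.51, 0.491 and 0.685 FPKM in Con., 1.08, 0.809 and 0.881 FPKM in PTZ and 1.46 and 1.36 FPKM in Q808 libraries. The 3 groups followed each other without overlap, and the log2 change was 1.20 (SE 0.30) for Q808 and 0.63 for PTZ against Con., the latter not called. Tnfrsf12a, the TWEAK receptor that is induced in injured tissue, measured 1.97, 2.95 and 1.91 FPKM in Con., 5.06, 8.34 and 2.39 FPKM in PTZ and 4.04 and 8.51 FPKM in Q808 libraries, a log2 change of 1.36 (SE 0.39) for Q808 against Con. PTZ-3 was within the Con. range, and the call was lost without Q808-2, where the log2 change was 0.83.

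Tnfsf12, the TWEAK ligand itself, measured 6.14, 5.8 and 6.06 FPKM in Con. and 11 and 7.95 FPKM in Q808 libraries (log2 change 0.63 (SE 0.20)). The death ligand Tnfsf10 (TRAIL) measured 1.22, 1.08 and 1.52 and 3.38 and 1.92 FPKM (log2 change 0.96 (SE 0.34)), while PTZ libraries spread over the whole range at 0.715, 0.22 and 2.77 FPKM. Ltbr, the lymphotoxin beta receptor, measured 8.49, 7.26 and 9.09 and 14.9 and 10.9 FPKM (log2 change 0.62 (SE 0.21)). In these 3 genes Q808-1 was higher than Q808-2, and the calls were lost without Con.-1, Con.-2 or Q808-1, where log2 changes lay between 0.39 and 0.94, and without the 3 libraries with high striatum markers.

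Of the receptors for IL-1 and haematopoietic cytokines, Il1r1 had a log2 change of 1.39 (SE 0.33) for Q808 against Con., Csf2rb of 1.55 (SE 0.41) and Il2ra of 1.79 (SE 0.48). Il1r1 was called with each library left out and under every alternative tried. Csf2rb was not called without Q808-1, where the log2 change was 1.19. Il15, a cytokine of the common gamma chain, measured 0.279, 0.235 and 0.324 FPKM in Con., 0.258, 0.189 and 0.556 FPKM in PTZ and 0.789 and 0.632 FPKM in Q808 libraries, a log2 change of 1.10 (SE 0.33) that was not called without Con.-1, Con.-2 or Q808-1, where the log2 change was 0.96 to 1.10. Il15ra, higher in PTZ, was at 0.23 and 0.32 FPKM in Q808 libraries, above the Con. libraries but not called (log2 change 0.82 (SE 0.41)).

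Il12a, a subunit of IL-12 and IL-35, measured 4.52, 4.03 and 3.22 FPKM in Con., 4.995, 4.39 and 7.05 FPKM in PTZ and 9.3 and 6.83 FPKM in Q808 libraries. Q808 libraries were above Con. libraries, with a log2 change of 1.02 (SE 0.25) and a call with every library left out. Its partner Il12b had a mean under 0.1 FPKM and was not tested. Among the growth factor and TGF-beta receptors, Pdgfra, a marker of oligodendrocyte precursors and fibroblasts, measured 9.87, 10.04 and 10.9 FPKM in Con. and 19.4 and 16.4 FPKM in Q808 libraries (log2 change 0.79 (SE 0.16)), and was also called with every library left out. Tgfbr2, the type II receptor of TGF-beta, measured 5.47, 4.54 and 6.3 and 11.8 and 7.51 FPKM, a log2 change of 0.80 (SE 0.27) that was not called without Con.-1, Con.-2 or Q808-1, where the log2 change was 0.47 to 0.81. Its co-receptor Tgfbr1 (0.54) and the ligands Tgfb2 (0.23) and Tgfb3 (0.38) were not called.

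The chemokines that separated Q808 from PTZ also separated it from Con., and both comparisons use the same 2 Q808 libraries. The log2 change against Con. was 1.99 (SE 0.47) for Ccl24, 1.54 (SE 0.27) for Pf4 and 0.70 (SE 0.20) for Cxcl12. Ccl24 and Pf4 were called with each library left out. As Ccl24 was tested only because of its Q808 values, its calls are no support for a change. Cxcl12 was not called without Con.-3 or Q808-1, where the log2 change was 0.56 to 0.59. Cxcl9, a chemokine induced by interferon gamma, was listed at 0 in both Q808 libraries and measured 0.507, 0.107 and 0.128 FPKM in Con. libraries, from 4, 1 and 1 fragments. Against a floor of 3 fragments over the Q808 group this is at least 1.2-fold lower, so the called log2 change of -1.61 rests on the pseudocount, and it was not called without Con.-1, Q808-1 or Q808-2, where the log2 change was -1.61 to -1.12, or in limma-voom. Its receptor Cxcr3 was below the filter.

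Without the 3 libraries with high striatum markers, which again leaves Q808-2 alone in its group, 18 members were called, beside 4.71% of all genes. Of the 16 they held 7, Ccl24, Pf4, Il1r1, Il12a, Tnfrsf12a, Tnfrsf1b and Pdgfra, and all 16 changed in the pooled direction within the 5 libraries and within the set of 3. With a pseudocount of 1, 10 of the 16 were called.

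The downstream lists held a few called genes in this comparison. Id1 and Smad6, induced by BMP signals, had log2 changes of 0.72 and 1.48 for Q808 against Con., Smad3 of -0.75, and Tradd, an adaptor of TNF receptor signalling, of 0.81, which made 2 of 11 higher and 1 lower in the first list and 1 of 16 higher in the second. Of the 18 JAK, STAT and SOCS genes only Socs3 was called, with 1.15 and 0.904 FPKM in Q808 libraries and a log2 change of 1.10 (SE 0.33). Over all genes 3.07% were called higher and 0.391% lower. For Q808 against PTZ, Cish was the only gene of the 3 lists called. It was higher, with a log2 change of 0.955, beside 1.36% of all genes called higher.

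Across all members tested, changes leaned upwards in Q808. The median log2 change was 0.38 for Q808 against Con. (ligands 0.38, receptors 0.36), beside 0.05 over all genes tested, and 115 of the 142 members (81%) were above 0, beside 55.3% of all genes. For Q808 against PTZ the median was 0.32 (ligands 0.24, receptors 0.37), beside 0.10 over all genes, with 103 members above 0 (72.5%, beside 61.7% of all genes). For PTZ against Con. it was 0.07 (ligands 0.10, receptors 0.04), beside -0.04, with 81 members above 0 (57%, beside 43%). In Q808 against Con. the list means of the erythroid, endothelial, pericyte and smooth muscle, and perivascular macrophage markers given above were also apart. The list mean of the microglial markers was apart by little (2.82 in Q808-2, against 2.81 in Con.-1). The part of these cells in the medians was not tested. After quantile normalization the members' medians were 0.12 for Q808 against PTZ and 0.21 for Q808 against Con., beside 0.01 and -0.02 over all genes.

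**Figure D4:**
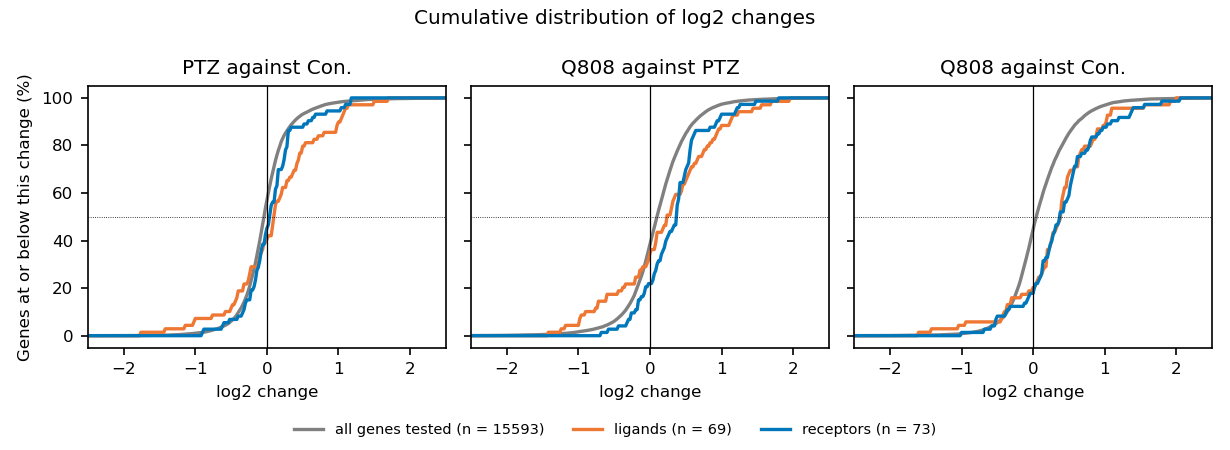
Share of genes (%) at or below each log2 change in the 3 comparisons, for all 15593 genes tested (grey), 69 ligands (orange) and 73 receptors (blue), drawn from -2.5 to 2.5. In Q808 against Con. both member curves lie right of the grey curve over most of the range, with medians of 0.38 and 0.36 against 0.05.

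Q808-1 was the highest library more often than any other. Q808-1 held the highest value of 56 of the 142 members (39.4%), 35 receptors and 21 ligands, beside 22.8% of all genes tested, and Q808-2 that of 22 members (15.5%, beside 10.1%). Without Q808-2 the median for Q808 against Con. was 0.52 and 32 members were called, beside 11.5% of all genes, and without Q808-1 the values were 0.28, 11 and 2.25%. Con.-1 to Con.-3 together held the highest value of 26 members and PTZ-1 to PTZ-3 that of 38. Q808-1 was also highest in the oligodendrocyte and microglial marker lists, and the part of this in the members' levels was not tested.

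Only 2 members, Il1r1 and Tnfrsf1b, rose from Con. to PTZ to Q808 with no overlap between the groups (1.41% of the 142, beside 0.231% of all genes), and none fell in that order. The level of the erythroid markers followed the same order, and its part in Il1r1 and Tnfrsf1b was not tested. In 3 members, Ccl3, Lif and Tnfsf9, every PTZ library was above all others in FPKM (2.11%, beside 1.14%), and in 1, Tnfsf13b, below all others (0.704%, beside 1.59%). For Ccl3, Lif and Tnfsf9 this order rests on the scaling by library. In Ccl3 and Lif, PTZ-3 held as many fragments as Q808-1 (3 for Ccl3, 4 for Lif) and fewer than Con.-2 (4 and 5). In Tnfsf9, PTZ-3 held 14 fragments and Con.-1 held 15. Since Il1r1 and Tnfrsf1b move in the same order, the sequences around their RefSeq transcription starts (GRCr8, 250 bases before to 50 bases after the start, written along the gene's strand) are shown, with that of Ccl24, the member with the largest log2 change called between Q808 and PTZ. Capitals mark matches to GGGNNNNNCC on either strand, a loose form of the NF-kB site, to TGANTCA, the AP-1 site, and to TTCNNNGAA, the STAT site, the last pair being the same on both strands.
Il1r1, chr9:50034133-50034432, plus strand: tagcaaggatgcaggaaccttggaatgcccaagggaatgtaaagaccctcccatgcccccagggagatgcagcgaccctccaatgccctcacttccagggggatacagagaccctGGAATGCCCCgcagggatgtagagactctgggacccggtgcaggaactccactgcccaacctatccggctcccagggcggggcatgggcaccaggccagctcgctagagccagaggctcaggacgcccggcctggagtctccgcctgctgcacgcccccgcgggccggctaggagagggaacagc
Tnfrsf1b, chr5:162387362-162387661, minus strand: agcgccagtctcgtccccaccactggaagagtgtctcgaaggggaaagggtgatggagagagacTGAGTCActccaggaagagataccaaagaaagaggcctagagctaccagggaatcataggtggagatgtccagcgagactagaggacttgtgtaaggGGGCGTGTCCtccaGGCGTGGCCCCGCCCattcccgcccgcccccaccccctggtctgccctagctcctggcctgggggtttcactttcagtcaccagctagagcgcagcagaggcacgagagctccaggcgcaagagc
Ccl24, chr12:26737173-26737472, plus strand: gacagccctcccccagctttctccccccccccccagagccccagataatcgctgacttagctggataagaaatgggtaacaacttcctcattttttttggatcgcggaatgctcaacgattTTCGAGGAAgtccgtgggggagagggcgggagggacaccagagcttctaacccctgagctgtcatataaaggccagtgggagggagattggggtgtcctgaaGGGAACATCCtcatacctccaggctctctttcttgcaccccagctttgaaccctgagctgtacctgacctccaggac

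The Il1r1 window held 1 match to GGGNNNNNCC, and the Tnfrsf1b window 3 of these, 2 of which overlap, and 1 to TGANTCA. In the Ccl24 window there was 1 match to GGGNNNNNCC and 1 to TTCNNNGAA. GGGNNNNNCC occurred in 47.3% of all 33469 promoter windows of the same length, TGANTCA in 7.33% and TTCNNNGAA in 8.87%. Of the 23 members called in any comparison, 17 had a window, of which 13, 4 and 3 held the respective motifs. A match is a description of the letters and no binding was measured.

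**Figure D5:**
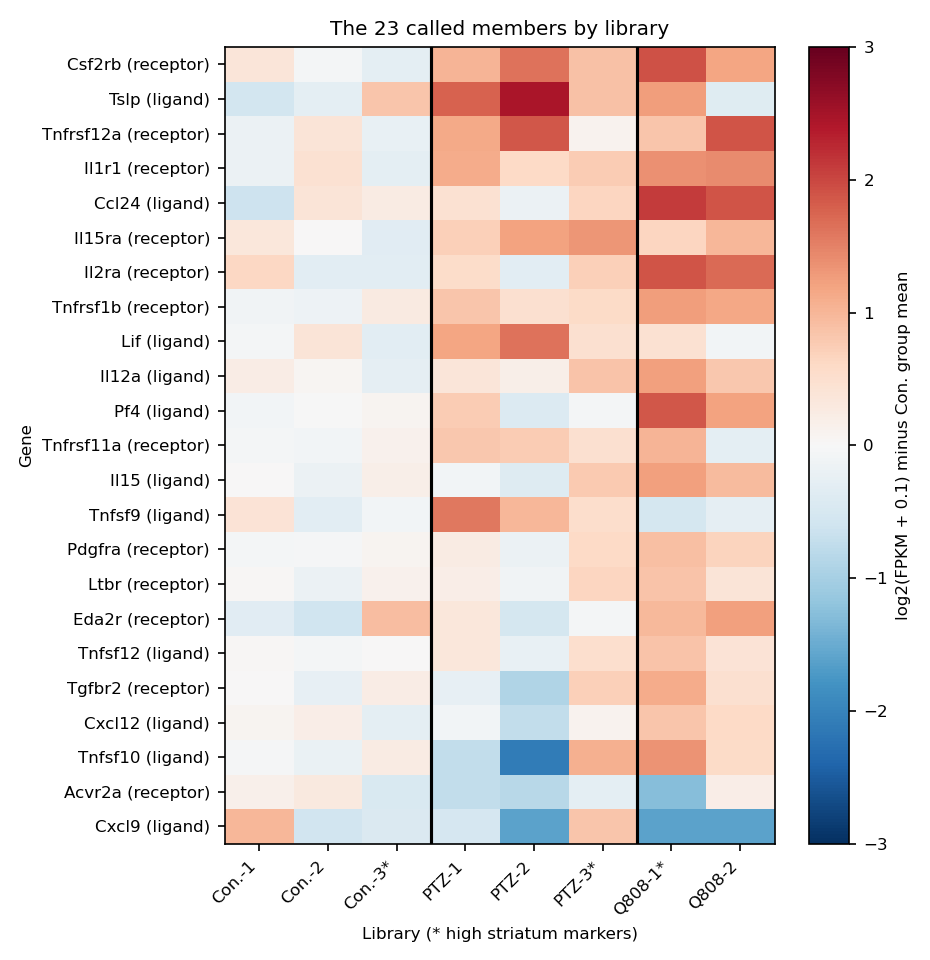
log2(FPKM + 0.1) of the 23 members called in any comparison, minus the mean of the Con. group, for each of the 8 libraries, from blue (lower) to red (higher). Ccl24, Il2ra and Pf4 are red in both Q808 libraries, and Tslp, Lif and Tnfsf9 are reddest in PTZ-1 or PTZ-2.

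The other ligands best known from brain inflammation were low and not called in any comparison. Il6 measured 0.134, 0.113 and 0.0678 FPKM in Con., 0.124, 0.242 and 0 FPKM in PTZ and 0.233 and 0.194 FPKM in Q808 libraries. These came from 2, 2 and 1, 2, 4 and 0, and 3 and 3 fragments. The PTZ libraries overlapped both other groups, while both Q808 libraries were above all Con. libraries. Ccl3, a macrophage chemokine, measured 0.0932, 0.314 and 0.094, then 0.344, 0.671 and 0.327, then 0.322 and 0.18 FPKM, from 1, 4 and 1, 4, 8 and 3, and 3 and 2 fragments. Every PTZ library was above all others in FPKM, without a call (log2 change 1.08 (SE 0.46) for PTZ against Con.). In fragments PTZ-3 equalled Q808-1 and was below Con.-2. Ccl4 was highest in PTZ-2 at 0.819 FPKM and listed at 0 in Con.-3 and Q808-2. Ccl5 stayed within 0 to 0.595 FPKM and Cxcl10 within 0.223 to 0.725 FPKM with overlapping groups.

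Il18 was the most abundant of the interleukins named here, at 7.04, 3.76 and 8.41 FPKM in Con., 7.43, 5.27 and 7.32 FPKM in PTZ and 11.1 and 7.46 FPKM in Q808 libraries. Q808-1 was above every other library, and Q808-2 lay within the Con. range. Csf1, a growth factor of microglia, was likewise highest in Q808-1 (6.38 and 3.81 FPKM in Q808, 3.54, 3.67 and 3.74 FPKM in Con.). The common gamma chain Il2rg measured 2.14 and 0.958 FPKM in Q808 and 0.734, 0.509 and 1.35 FPKM in Con. libraries. In each of these 3 the value of Q808-1 stood above the other 7 libraries. The binding subunit Il6r followed the other division, at 1.59 to 2.91 FPKM in the 3 libraries with high striatum markers and 4.42 to 6.54 FPKM in the other 5.

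Among the remaining partners of called members, none was called. Pdgfa measured 12.2, 10.4 and 11.5 FPKM in Con. and 18.3 and 12.3 FPKM in Q808 libraries and Pdgfc 2.27, 2.86 and 8.44 and 5.59 and 3.4 FPKM, where Con.-3 was the highest of all. Inhbb, an activin subunit, spread from 1.29 to 4.5 FPKM, and Bmp7 from 0.463 to 5.48 FPKM with its highest value in Q808-2, the library with the highest level of choroid plexus markers (mean log2 6.21, against 0.98 to 4.67 in the others). Eda stayed within 0.823 to 1.91 FPKM and Tnfrsf10b, a receptor for Tnfsf10, within 0 to 0.764 FPKM. Il2rb, a chain for IL-2 and IL-15, had a mean of 0.0334 FPKM and was not tested.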

How the data were processed

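The authors trimmed reads with Trimmomatic and deposited FPKM per gene and library, computed with Cufflinks, with a KEGG annotation of each gene. The submitters' processing notes also name HISAT2, Bowtie2, SAMtools, StringTie, HTSeq and DESeq, and the genome build, annotation and versions are not given in the sources used here. As no strand setting is given, reads of a gene and of an overlapping antisense gene cannot be told apart. The authors' read counts were not used here. Symbols came from the RefSeq table of GRCr8 by GeneID for 20633 of the 22601 genes, and promoter windows from RefSeq for the same assembly.

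The members, families, ligand and receptor roles, marker lists and tests were chosen with earlier results of these data known. Tests ran on all 15593 genes with a mean of at least 0.1 FPKM, on log2(FPKM + 0.1), in limma 3.58.1 (R 4.3.3), with empirical Bayes and a mean-variance trend, each comparison on its own groups, and Benjamini-Hochberg adjustment over all genes tested. Called means an unadjusted limma p-value below 0.05 with a change above 1.5-fold. The procedure was run on simulated data with known changes and independent noise. That simulation left out the striatum division of the libraries, so it gives no support for single calls. The labels give 1 sample per rat, so p-values measure the spread between rats.

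Named genes were the members called in any comparison, the 8 ligands and 8 receptors with the highest mean FPKM, 31 genes known from seizure and brain inflammation, of which 27 are members, and the partners of called members. Il1rn, Il33, Ccr2 and Il34 are on the list of 31 and carry no pathway entry here. Some single-gene results are not reported here. Libraries with the same number in the PTZ and Con. groups deviated together from their group means (correlations of 0.21, 0.30 and 0.42 across genes). Pairs with unlike numbers had -0.43 to 0.32, the highest for Con.-2 and PTZ-1. The 0.42 joins Con.-3 and PTZ-3, both with high striatum markers. The main fits, which gave the printed changes and calls, were unpaired. The numbers come from the labels alone and were entered as a block only as an alternative. Where the FPKM of a gene were whole multiples of a step (18422 of 18431 genes with a value above 0, within 0.01 fragments), fragment numbers were derived and also tested by limma-voom, an alternative added after the data were seen. Further settings were a pseudocount of 1 or 0.01, every gene with any value above 0, a minimum mean of 1 FPKM, a joint fit of the 3 groups, limma without its trend, median ratio or quantile scaling, a block for the replicate number, a threshold of 2-fold, a requirement that groups be apart, the 3 libraries with high striatum markers removed or marked by a covariate, and the removal of single libraries.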

Additional observations from a re-analysis of the deposited data

How the results depend on the processing

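Counts of called members moved with the settings, as did the share of all genes called, given in parentheses. For PTZ against Con. (8 members) the count was 2 with a pseudocount of 1 (1.4%), 4 with a mean of at least 1 FPKM (2.16%), 5 with a 2-fold threshold (1.22%) and 17 without the 3 libraries with high striatum markers (9.81%), and 5 to 12 with 1 library left out (1.6% to 7.28%). For Q808 against PTZ (6 members) it was 3 with a pseudocount of 1 (1.4%), 11 with every gene above 0 (2.33%), 2 with a mean of at least 1 FPKM (1.54%), 25 without the 3 libraries (9.26%) and 12 with the high striatum set as a covariate (3.78%), and 3 to 23 with 1 library left out (0.847% to 10.1%). For Q808 against Con. (16 members) it was 10 with a pseudocount of 1 (2.18%), a mean of at least 1 FPKM (2.94%) or a 2-fold threshold (1.65%), and 11 to 32 with 1 library left out (1.79% to 11.5%). The median log2 change for Q808 against PTZ (0.32) was 0.12 after quantile normalization and 0.19 to 0.39 with 1 library left out. For Q808 against Con. (0.38) it was 0.20 with a pseudocount of 1, 0.21 after quantile normalization and 0.28 to 0.52 with 1 library left out, and for PTZ against Con. (0.07) it was -0.02 to 0.13. The causes were not tested.

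With the replicate number as a block, 10, 29 and 24 members were called in the 3 comparisons, beside 3.95%, 12.1% and 6.9% of all genes. The Q808 group has no replicate 3, so in its 2 comparisons the block takes up PTZ-3 or Con.-3 entirely. The members' medians were those without that library, 0.388 against PTZ and 0.406 against Con. The 29 and 24 thus also reflect the removal of a library with high striatum markers. In these 2 comparisons, same-numbered libraries had correlations of -0.38 and 0.53 (Con.) and -0.29 and 0.32 (PTZ). The main fits were unpaired in all 3 comparisons. Acvr2a for PTZ against Con. lost its call under the block, as did Eda2r for Q808 against PTZ and Cxcl12 for Q808 against Con., and the block ended no other call of the 30 that the comparisons hold together.

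Of the 564 alternative values of those 30 changes, 445 stayed called and 119 were not called, and none turned its direction. Settings that alter only the threshold, the filter or the error keep the log2 change of the main fit. For those settings the direction was fixed in advance. With limma-voom on the fragment numbers 28 of the 30 were called. Low fragment numbers limit Lif, Ccl3, Ccl24, Il2ra and Cxcl9, and 2 or 3 libraries per group limit every comparison.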
